A study of Mus musculus with 6 samples.

Results

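Trp63 encodes p63, the transcription factor of the p53 family that holds the horizontal basal cells of the olfactory epithelium in their resting state. It was taken as 1 gene row of the 8078 gene entries that the study's table lists, and it had an entry of its own. The data are RNA of cells sorted for the red fluorescent protein TdTomato from mice of the strain labelled B6;KRT5-CreER;Ai9 fl(Stop)TdTomato, 12 weeks old, with 3 libraries per group. In the injured group the olfactory epithelium was collected 18 h after the mice had breathed methyl bromide, at 180 ppm, for 8 h. In the uninjured group it was collected without that exposure. All mice of both groups carried the CreER recombinase, driven by the promoter of keratin 5 and active only with tamoxifen, and the TdTomato reporter. Tamoxifen was given 2 weeks before the sort, so the label marks cells in which the promoter was active then, and their progeny. Cells of several animals were combined in each library, so p-values measure the spread between pools. The tissue was separated from respiratory epithelium before the sort, per the labels.

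Horizontal basal cells lie on the basement membrane of the olfactory epithelium and rest there as reserve stem cells. When the neurons and sustentacular cells above them are destroyed they divide and rebuild the tissue. In mice, removing p63 from these cells is known to release them from rest and to start their differentiation. In other layered epithelia, such as epidermis, p63 switches on genes for keratins, for the anchors that hold basal cells to the basement membrane and for junctions between cells. It also represses inhibitors of the cell cycle.

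Trp63 is read from alternative promoters. Transcripts from the upstream promoter encode the TA form, with an amino-terminal activation domain, and transcripts from the internal promoter encode the ΔN form, which lacks that domain and is the main form in basal cells of stratified epithelia. The mouse annotation GENCODE M21 on build GRCm38 lists 8 coding transcripts of Trp63 on the plus strand of chromosome 16. They use 2 start codons, with 4 transcripts each. The first coding exons are shown because they are what tells the forms apart at their starts, and because a single gene value, as given here, sums them. The start codon is in capitals. The TA exon is at chr16:25684290-25684351 and has 62 coding bases, and the ΔN exon is at chr16:25802060-25802101 and has 42.
TA first coding exon: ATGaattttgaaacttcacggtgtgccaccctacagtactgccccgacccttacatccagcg
ΔN first coding exon: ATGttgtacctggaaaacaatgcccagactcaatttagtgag
No level of either form could be given from the table. The authors' notes name the older build mm9, so these positions serve only to place the exons.

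Trp63 stood lower in all 3 injured libraries than in any uninjured one. The injured replicates 1, 2 and 3 had 112, 99.5 and 140 FPKM of Trp63, and the uninjured replicates 1, 2 and 3 had 187, 194 and 157 FPKM (fragments counted relative to transcript length and to the library's mapped fragments, the unit these values are taken to have). The groups did not overlap, and 16.1 FPKM separated the highest injured library from the lowest uninjured one. The mean was 117 ± 20.9 FPKM in injured and 179 ± 19.9 FPKM in uninjured libraries (SD, n = 3 each), so the injured mean was 0.656 times the uninjured mean. On the log2(FPKM + 1) scale the change, injured minus uninjured, was -0.61 with a standard error of 0.31 and a 95% interval from -1.30 to 0.07. It did not pass in limma's test over 7987 genes with Benjamini-Hochberg adjustment (adjusted p = 0.486). The exact two-sided permutation test of the 6 values gave p = 0.10, which is the smallest p that 3 libraries against 3 allow.

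That fit called 0 genes higher and 1 gene lower at an adjusted p of 0.05, which is 0% and 0.0125% of the genes tested. With no adjustment, at a p of 0.05, limma gave 571 higher genes (7.15%) and 323 lower ones (4.04%). After upper-quartile scaling that split was 335 higher and 580 lower. Complete separation of the groups in the direction of Trp63 was found for 539 genes, 6.75% of those tested, and in the other direction for 958 genes, 12%. A more negative change than that of Trp63 was found for 696 genes, 8.71% of those tested. In these pooled bulk samples, fewer cells with the transcript and less transcript per cell cannot be told apart.

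**Figure D1:**
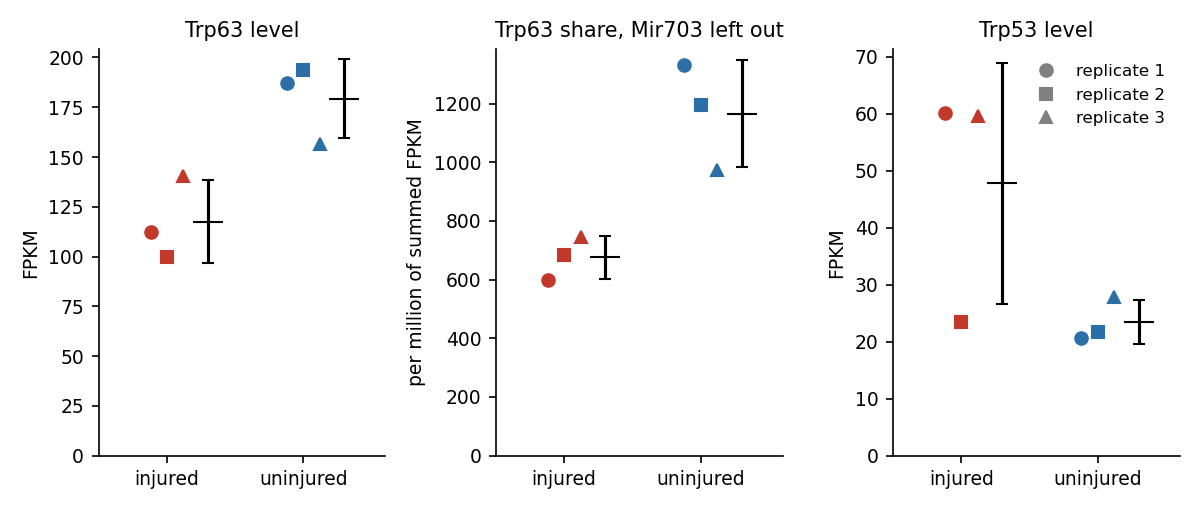
Trp63 FPKM (left), Trp63 as a share of summed FPKM with Mir703 left out (middle) and Trp53 FPKM (right) in each library of the injured and uninjured groups, with the mean and SD (n = 3 libraries) as a bar beside the points. The 3 injured libraries lie below all uninjured ones in both Trp63 panels, whereas for Trp53 injured replicate 2, at 23.4 FPKM, lies among the uninjured libraries.

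The size of the difference depended on how libraries were scaled, and against the single most abundant entry its direction turned. As a share of all FPKM in a library, Trp63 took 551, 606 and 606 parts per 1000000 in the injured libraries, against 993, 931 and 726 in the uninjured ones. The single entry of Mir703 took 8.01% to 25.4% of summed FPKM and less of it in each injured library than in any uninjured one. It was the highest entry of every library, and as a percentage of its level Trp63 stood at 0.512 ± 0.181 in injured and 0.367 ± 0.0708 in uninjured libraries (SD, n = 3 each), with overlap (exact permutation p = 0.30). Without that entry the Trp63 share was 598, 686 and 744 parts per 1000000 in injured replicates 1 to 3, and 1332, 1194 and 972 in uninjured replicates 1 to 3. Set against the median gene of its own library, Trp63 was 12.3, 11.8 and 15.0 times as high in injured libraries and 24.3, 24.6 and 19.5 times as high in uninjured ones. The shares with and without Mir703 and the ratio to the median gene did not overlap between the groups, and each gave an exact permutation p of 0.10. The median change over all genes tested was 0.16 on the log2 scale in the values as deposited, and the Trp63 change is to be read against it. After upper-quartile scaling, which brings the median change to -0.01, the Trp63 change was -0.80 (limma adjusted p = 0.296).

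Injured replicate 2 had the lowest Trp63 level and stood apart from the other libraries in its markers. Genes of immature neurons, summed over 5 markers, reached 358 FPKM in it, against 26.8 and 15.7 in injured replicates 1 and 3 and 28.4 to 48.2 in the uninjured libraries. Leaving it out gave a Trp63 change of -0.50 (limma adjusted p = 0.277). With that library left out limma called 278 genes higher and 92 lower, and Trp63 was not among them. The SD of Trp63 on the log2 scale was 0.25 over injured libraries, against a median of 0.47 among the 268 genes whose mean lay between 0.5 and 2 times its own mean of 148 FPKM. Over uninjured libraries it was 0.16, against a median of 0.29 for those genes. A smaller SD than that of Trp63 was found for 13.4% of them in injured and 21.3% in uninjured libraries. Of these 268 genes, 35 had a more negative change than Trp63, and 27 (10.1%) were lower in every injured library than in any uninjured one.

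Some features of the libraries differed between the groups along with Trp63. Xist, which is transcribed from the inactive X chromosome of female cells, was the 1 gene that limma called, at 0.0645 to 0.561 FPKM in injured libraries and 27.0 to 33.8 FPKM in uninjured ones. The Y-linked gene Eif2s3y had 23.0, 29.3 and 21.1 FPKM in the injured libraries, against 18.8, 2.73 and 2.55 FPKM in the uninjured ones. The labels used here do not give the sex of the pooled animals, and the sex makeup of the pools cannot be told apart from the injury. All markers of mature neurons (6 of 6) and of respiratory cells (3 of 3) had negative changes, as did 1 of 3 for fibroblasts. Of all 7987 genes tested, 2960 had negative changes. With all 6 libraries limma called none of the markers of other cell types. Without injured replicate 2 it called all 6 mature neuron markers lower, the sustentacular marker Cyp1a2 and the fibroblast marker Dcn lower, and the sustentacular marker Krt18 higher. Of all 7887 genes in that fit, 92 were called lower and 278 higher. Summed markers of other cell types stood lower in every injured library for mature neurons (6 genes, 123 to 357 FPKM in injured and 427 to 740 in uninjured), for respiratory cells (3 genes, 1190 to 2299 in injured and 3048 to 4987 in uninjured) and for fibroblasts (3 genes, 32.8 to 101 in injured and 126 to 220 in uninjured). Single markers lower in every injured library were 3 of 6 for mature neurons, Plunc alone for respiratory cells and Dcn alone for fibroblasts. So were 1 of 4 for sustentacular cells (Cyp1a2), 1 of 2 for glands (Gpx6) and 1 of 4 for immune cells (Cd74). Over all genes the share lower in every injured library was 6.75%. Plunc made up most of the respiratory sum, at 1896 ± 620 FPKM in injured and 4082 ± 988 in uninjured libraries (SD). Foxj1, Dnahc5, Col1a1 and Col1a2 overlapped between the groups. For glands the sum of 2 genes was 103 to 372 FPKM in injured and 388 to 1059 in uninjured libraries. Most of it was Gpx6, at 180 ± 156 FPKM in injured and 806 ± 374 in uninjured libraries (SD). The other gland gene, Sox9, overlapped between the groups, with a change of -0.03, and 0.34 without injured replicate 2. The sums overlapped for globose basal cells (6 genes, 22.4 to 81.8 in injured and 21.3 to 26.9 in uninjured), sustentacular cells (4 genes, 206 to 619 in injured and 256 to 318 in uninjured) and immune cells (4 genes, 148 to 955 in injured and 262 to 469 in uninjured). Most of the sustentacular sum was Krt18, at 119 to 558 FPKM in injured and 133 to 173 in uninjured libraries. Its change was positive, and those of the other 3 sustentacular markers were negative. Most of the immune sum was the entry that joins Lyz1 and Lyz2. It had 96.6 to 855 FPKM in injured and 165 to 285 in uninjured libraries. Of the globose basal markers 2 of 6, Neurod1 and Lgr5, were higher in every injured library, against 12% of all genes. None of these markers of other cell types was at the table's lowest value in any library. Their part in the Trp63 difference was not tested. The label of the cells was checked against 6 horizontal basal entries other than Trp63, with none at the lowest value. They summed to 1063, 417 and 1025 FPKM in injured replicates 1, 2 and 3, against 596 to 622 FPKM in the uninjured libraries, so injured replicate 2 was below and the other injured libraries above all uninjured ones. Most of each sum was 1 entry that joins several keratin genes and cannot be split. It had 917, 355 and 853 FPKM in injured and 537, 521 and 507 in uninjured replicates 1 to 3. All the other entries also had injured replicate 2 below every uninjured library. The median change of the 6 entries was 0.33, and 0.82 without injured replicate 2. Krt5 was not analysed here.

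Trp63 was among the most abundant transcripts of the sorted cells, and it ranked lower after injury. It was the 231st, 183rd and 159th highest entry in injured replicates 1, 2 and 3, and the 65th, 87th and 129th highest in uninjured replicates 1, 2 and 3. Its place did not overlap between the groups. As a percentile, the share of entries with a lower value, this was 97.6 ± 0.454 in injured and 98.8 ± 0.403 in uninjured libraries (SD, n = 3 each, difference -1.20, exact permutation p = 0.10). A rank needs no scaling between libraries. In injured libraries 158 to 230 entries stood above Trp63, and in uninjured libraries 64 to 128 did.

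**Figure D2:**
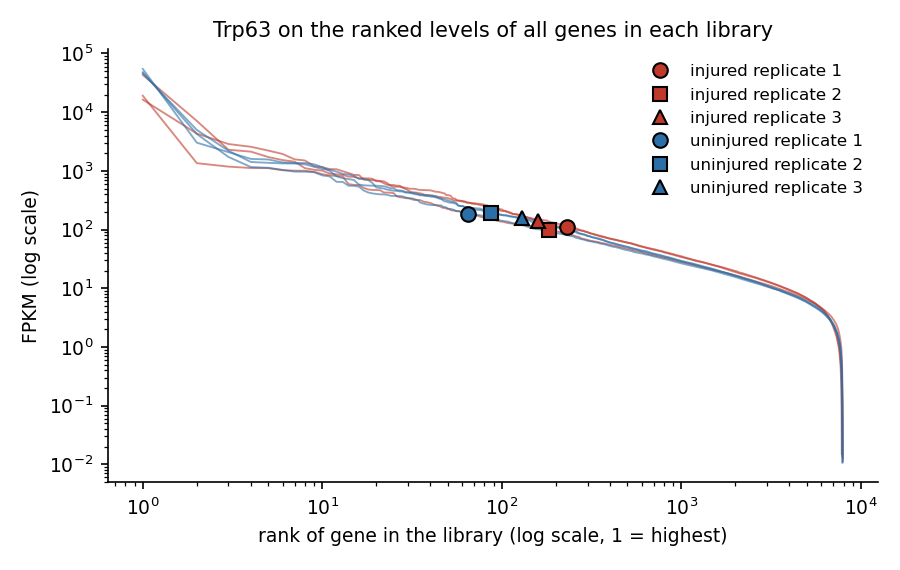
FPKM of all entries in each library against their rank, both on log axes, with Trp63 marked in injured (red) and uninjured (blue) libraries. The injured marks sit at ranks 159 to 231 and the uninjured ones at ranks 65 to 129, on curves that lie close together at those ranks.

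Among the listed transcription factors, Fos and Egr1 were above Trp63 in the uninjured libraries. A list of 82 epithelial and olfactory transcription factors had 65 entries in the table, and Trp63 was the 3rd highest of them in each uninjured library. Those above it were Fos, a subunit of the AP-1 factor, at 328 ± 119 FPKM, and Egr1, an immediate early zinc finger factor, at 264 ± 15.6 FPKM in uninjured libraries. The next below were Hey1, a target of Notch signalling, at 108 ± 13.3, and the homeobox factor Otx2, at 99.5 ± 14.2 FPKM. Trp63 at 157 to 194 FPKM was above every uninjured value of Hey1 (98.3 to 123) and of Otx2 (83.8 to 111). In the injured libraries its rank was 4th, 4th and 5th. In injured replicate 2 the factor Lhx2, which olfactory neurons express, stood above it at 112 FPKM. In injured replicate 3 it was passed by Klf6 at 260 FPKM and Fosb at 188 FPKM, and in injured replicate 1 by Nfe2l2, the regulator of the oxidative stress response, at 125 FPKM.

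Of the 64 other factors tested, limma called 0 at an adjusted p of 0.05 in either direction. Without adjustment, 2 were higher and 8 lower at a p of 0.05, against 7.15% and 4.04% of all genes. Without injured replicate 2, 3 of 63 factors (Fosl1, Myc and Trp53) passed as higher and 1 (Meis2) as lower. That fit called 278 of 7887 genes higher and 92 lower. Over the 6 libraries, the injured ones lay below all uninjured ones for 10 of the 64 factors, 15.6%, where the share over all genes was 6.75%. They lay above for 2, 3.13%, against 12% of all genes. Leaving out injured replicate 2 gave 13 factors below and 11 above, against 1160 and 2351 of 7987 genes. Besides the Notch targets Hey1 and Hes1, the 10 lower factors were Id1 and Id3, which block basic helix-loop-helix factors, Snai2, Meis1, Meis2, Grhl2, Nfia and Ehf. They were singled out on their values. Their changes ran from -0.39 for Ehf to -1.30 for Meis2. Ehf came close to overlapping, at 17.64 FPKM in injured replicate 1 and 17.66 in uninjured replicate 3. The list's median change was -0.11, and that of all genes tested was 0.16. The list's median was -0.02 without injured replicate 2.

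**Figure D3:**
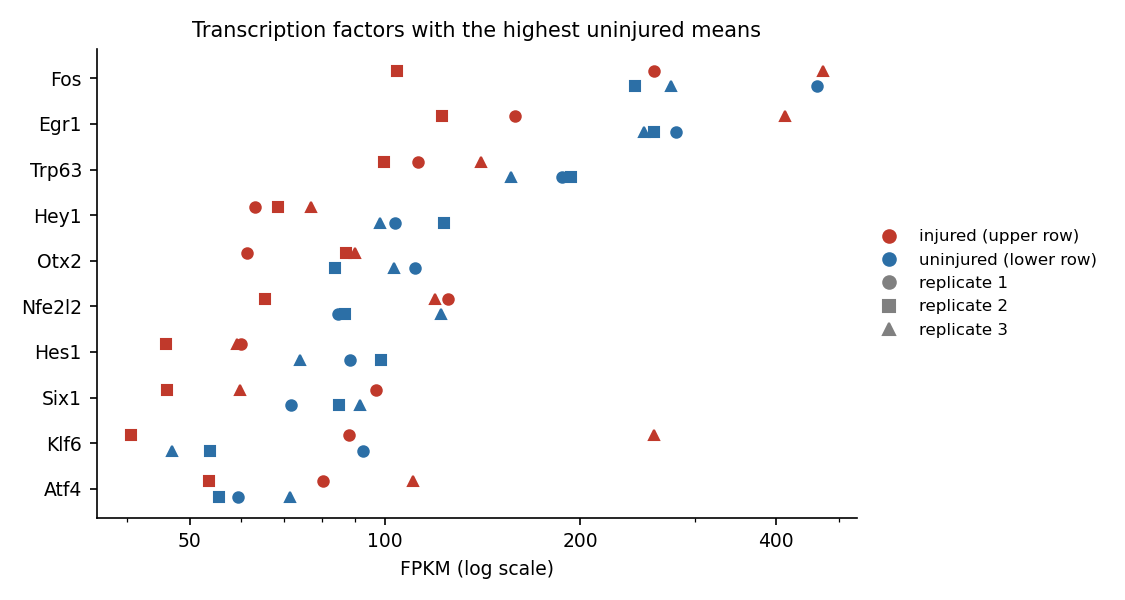
FPKM on a log axis of the 10 listed transcription factors with the highest uninjured means, by library, injured (red) above uninjured (blue) for each factor. Trp63, Hey1 and Hes1 show no overlap between the groups, and Fos, Egr1 and Klf6 spread widely over the injured libraries.

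The other member of the p53 family in the table had a positive change. Trp53, which encodes the tumour suppressor p53, had 60.2, 23.4 and 59.6 FPKM in the 3 injured libraries and 20.7, 21.8 and 27.8 FPKM in the 3 uninjured ones, in replicate order. Injured replicates 1 and 3 lay above every uninjured library, and injured replicate 2 lay within their range. The change was 0.89 ± 0.38 (standard error) on the log2 scale and did not pass (limma adjusted p = 0.412). It was 1.33 without injured replicate 2 and passed there (limma adjusted p = 0.0321). The ratio of Trp63 to Trp53 in FPKM was 1.87, 4.25 and 2.35 in injured libraries, against 9.05, 8.90 and 5.63 in uninjured ones. These ratios did not overlap (exact permutation p = 0.10). The ratio of Trp63 to the gene was likewise lower in every injured library for 45.2% of the 7986 other genes tested. Trp73 was not analysed here.

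The ratio of Trp63 to other basal cell genes was lower in every injured library for 5 of 12 entries (41.7%). Over all 7986 other genes tested, the ratio of Trp63 to the gene was lower in every injured library for 45.2% and higher in every one for 1.29%, so the basal share is near the background and is not a result about basal cell genes. A list of 15 basal cell symbols had 12 entries in the table, all of which were tested. In FPKM, Trp63 was the 2nd or 3rd highest of these 13 entries in every library, below a joined keratin entry and, in 5 of 6 libraries, below Perp. The mean log2(FPKM + 1) of Trp63 above the average of the 12 entries was 1.69 ± 0.54 in injured and 2.48 ± 0.10 in uninjured libraries (SD, n = 3 each). This offset was 1.28, 2.30 and 1.50 in injured replicates 1, 2 and 3, and 2.56, 2.52 and 2.37 in uninjured replicates 1, 2 and 3. The groups did not overlap (difference -0.79, exact permutation p = 0.10), and injured replicate 2 lay closest to the uninjured libraries. Against the median in place of the average of the 12 entries, the difference was -0.63 and the groups overlapped (exact permutation p = 0.30).

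By single genes among the 12, the largest difference in ratio was that against Cav1, a coat protein of caveolae. Trp63 was 4.68, 21.8 and 6.54 times as high as Cav1 in injured libraries and 42.4, 55.6 and 28.9 times as high in uninjured ones. Cav1 itself was at 16.7 ± 10.6 FPKM in injured and 4.44 ± 0.962 in uninjured libraries. Against Itga6, the integrin subunit of hemidesmosomes, the ratio was 3.52, 8.61 and 2.91 in injured libraries and 11.8, 14.5 and 10.1 in uninjured ones. Against its partner Itgb4 it was 1.99, 3.05 and 2.02 in injured libraries and 5.03, 4.84 and 3.75 in uninjured ones. Both ratios were separate between the groups. The neurotrophin receptor Ngfr gave ratios of 5.47, 22.3 and 11.3 in injured libraries and 31.0, 29.6 and 22.4 in uninjured ones, which came close without overlapping. The basal keratin Krt14 was part of a joined entry of 7 keratin genes, which cannot be split. Trp63 stood to this joined entry at 0.123, 0.280 and 0.165 in injured libraries and at 0.349, 0.372 and 0.308 in uninjured ones.

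For the other 7 entries the ratios overlapped. The log2 ratio changed by -0.94 against the adhesion molecule Icam1, by -0.65 against the integrin subunit Itgb1, by -0.59 against the growth factor receptor Egfr and by -0.47 against the hyaluronan receptor Cd44. It changed by -0.24 against Pax6, a factor of eye and olfactory development, and by -0.08 against Perp, a desmosome-associated protein at 869 FPKM in uninjured replicate 2 and 141 and 166 FPKM in the other uninjured libraries. Against Snai2, a repressor found in basal epithelial cells, it changed by 0.13. Snai2 was the only basal entry that, like Trp63, was lower in every injured library, at 32.9 ± 9.33 FPKM in injured and 54.1 ± 4.83 in uninjured libraries (limma adjusted p = 0.392). Without injured replicate 2, the ratio was lower in every injured library for 9 of 12 basal entries and for 51.9% of all other genes tested. The basal genes themselves had a median change of 0.18, against 0.16 over all genes. These medians were 0.55 and 0.17 without injured replicate 2. By limma 0 of them passed over the 6 libraries. Without adjustment 1 was higher (Cav1) and 1 lower (Snai2) at a p of 0.05, against 7.15% and 4.04% of all genes. Cav1 and Itga6, 2 of 12, passed as higher without injured replicate 2, where 278 of 7887 genes did.

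**Figure D4:**
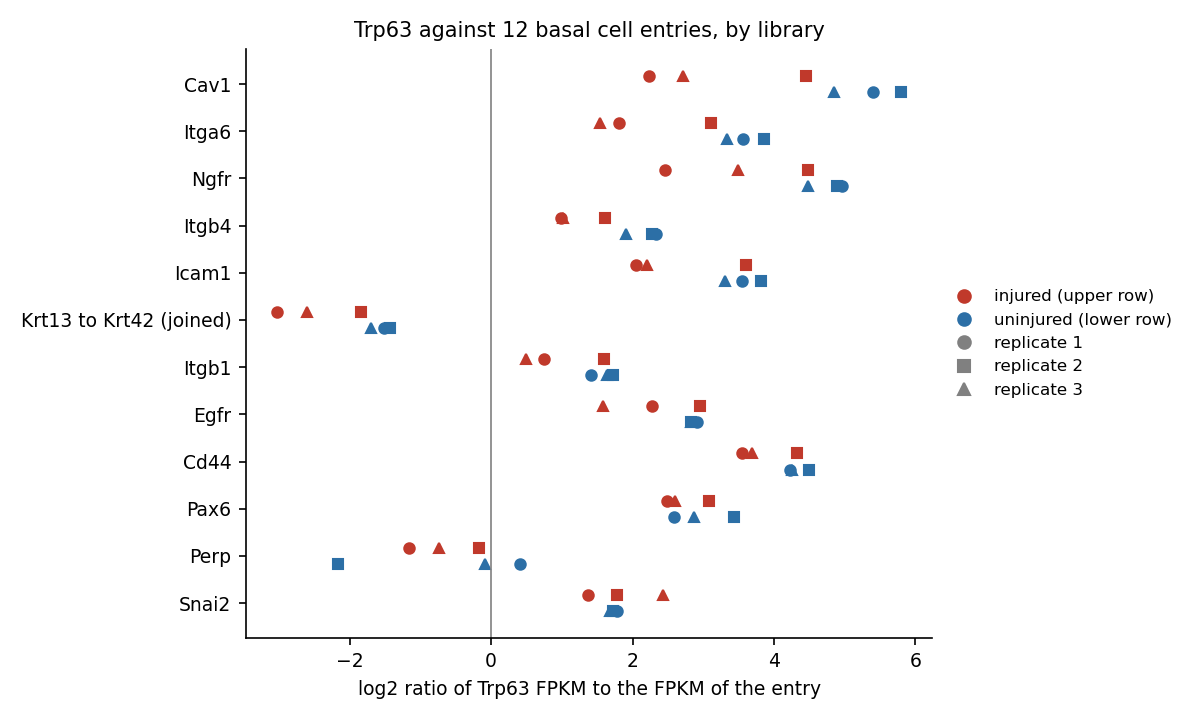
Log2 ratio of the FPKM of Trp63 to that of 12 basal cell entries in each library, injured (red) above uninjured (blue) for each entry, sorted by the difference between the groups. Injured points lie left of all uninjured points for Cav1, Itga6, Ngfr, Itgb4 and the joined keratin entry, and the groups mix for Snai2 and Perp.

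Genes known to be activated by p63 in keratinocytes and other epithelia showed no common direction in the test. None passed in either direction by limma in the adhesion list (18 entries tested), the signalling list (11) or the nuclear list (8). Their median changes were -0.18, -0.03 and 0.02, below the 0.16 of all genes tested. Negative changes were found in 10, 8 and 3 of their members, and in 2960 of all 7987 genes tested. At an unadjusted p of 0.05, 1 member of each list was higher and none was lower, where the shares over all genes were 7.15% higher and 4.04% lower. Without injured replicate 2 the adhesion median was 0.0053. Limma then called 4 of 18 adhesion genes higher, among them Cldn1, Itga3 and Itga6. It called 1 higher in each of the signalling and nuclear lists, Pthlh and Hells. Over all 7887 genes that fit called 278 higher and 92 lower.

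Values with ± are means and SDs over 3 libraries. In the adhesion list the most abundant entries were the joined keratin entry, at 709 ± 308 FPKM in injured and 522 ± 14.8 FPKM in uninjured libraries, and Perp. Dst, the linker of hemidesmosomes to keratin, was at 66.4 ± 24.8 in injured and 95.2 ± 33.5 FPKM in uninjured libraries, and Dsp, the linker of desmosomes, was at 63.4 ± 14.8 in injured and 71.2 ± 7.60 FPKM in uninjured libraries. The groups overlapped for all of these. Members that kept the groups apart were singled out on their values. Over all genes tested, 6.75% were lower and 12% higher in every injured library. In the adhesion list 3 of 18 (16.7%) were lower: Lamb3, a chain of the anchoring laminin, at 37.6 ± 9.24 FPKM in injured and 49.9 ± 4.30 in uninjured libraries, Fermt1, an integrin activator, at 10.3 ± 1.67 in injured and 14.3 ± 1.68 FPKM in uninjured libraries, and Frem2, a basement membrane protein, at 1.68 ± 0.447 in injured and 3.51 ± 0.769 FPKM in uninjured libraries. Lamb3 came close to overlapping, at 46.425 FPKM in injured replicate 3 and 46.450 in uninjured replicate 2. Higher in every injured library was 1 of 18, the tight junction protein Cldn1, at 12.1, 1.00 and 11.5 FPKM in injured and 0.370, 0.604 and 0.623 FPKM in uninjured libraries (log2 change 2.18, limma adjusted p = 0.340).

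In the signalling list the 4 most abundant members overlapped between the groups. Trim29 was at 28.2 ± 5.19 FPKM in injured and 28.6 ± 3.04 in uninjured libraries, and Egfr at 27.7 ± 17.5 in injured and 24.7 ± 2.62 FPKM in uninjured libraries. Fgfr2, a receptor of fibroblast growth factors, was at 23.9 ± 18.4 in injured and 27.9 ± 9.89 FPKM in uninjured libraries, and Jag2, a Notch ligand, at 19.4 ± 6.81 in injured and 26.8 ± 9.10 FPKM in uninjured libraries. The parathyroid hormone-related peptide Pthlh was the 1 member apart, at 20.1 ± 11.3 in injured and 8.40 ± 1.33 FPKM in uninjured libraries. Among nuclear targets, Runx1 was at 38.3 ± 13.0 in injured and 38.0 ± 8.34 FPKM in uninjured libraries, Klf4 at 39.7 ± 31.7 in injured and 28.3 ± 10.5 in uninjured libraries and Dlx5 at 19.1 ± 3.78 in injured and 18.5 ± 0.679 in uninjured libraries. Hells, a chromatin remodeller of dividing cells, was at 7.87 ± 3.01 FPKM in injured and 2.00 ± 0.828 in uninjured libraries, without overlap.

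Genes that p63 is known to repress divided by direction. Of 6 tested, 3 had positive and 3 negative changes, with a median of 0.18, and limma passed 0 of them. The median was 0.67 without injured replicate 2. Without adjustment, Igfbp3 was higher and Hes1 lower at a p of 0.05, against 7.15% and 4.04% of all genes. Igfbp3, a binding protein of insulin-like growth factors, was at 89.7, 22.7 and 108 FPKM in injured and 20.7, 21.4 and 21.2 FPKM in uninjured libraries. All injured values were above the uninjured ones. Igfbp3, 1 of 6, passed as higher without injured replicate 2, where 278 of 7887 genes did. The cell cycle inhibitor Cdkn1a had 22.1, 15.9 and 136 FPKM in the injured libraries, against 16.5, 16.3 and 16.5 FPKM in the uninjured ones, and injured replicate 3 was far above the rest. Gadd45a, which responds to DNA damage, was at 30.5 ± 25.7 in injured and 16.0 ± 1.28 FPKM in uninjured libraries. The Notch target Hes1 was lower in every injured library, at 55.1 ± 7.86 in injured and 87.0 ± 12.3 FPKM in uninjured libraries (limma adjusted p = 0.425).

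**Figure D5:**
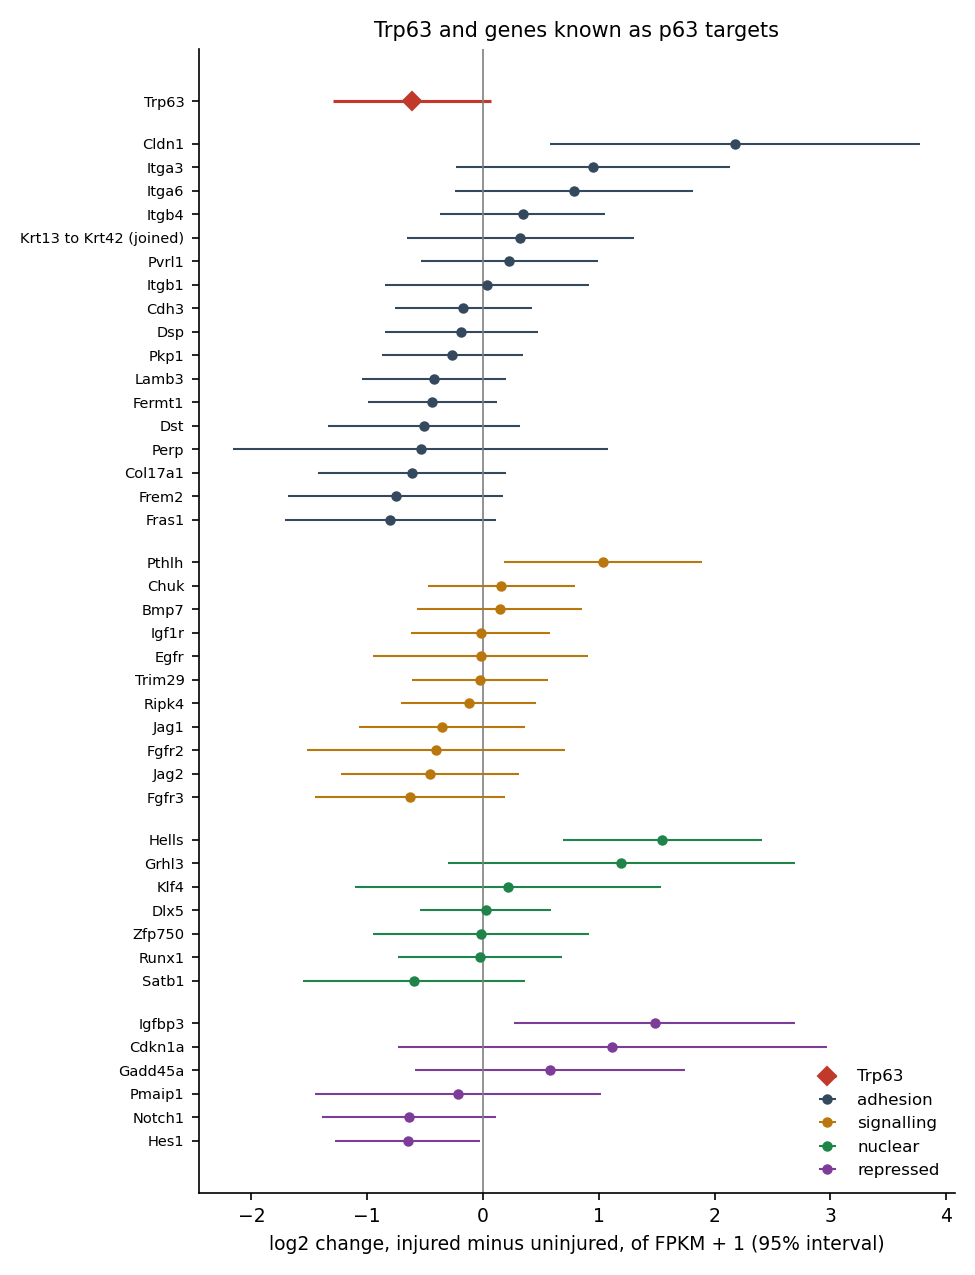
Log2 change, injured minus uninjured, of FPKM + 1 with its 95% interval from limma for Trp63 and for genes known as p63 targets, grouped into adhesion, signalling, nuclear and repressed targets (1 adhesion and 1 nuclear member are not drawn). Trp63 at -0.61 lies below the median of each group, and most intervals cross 0.

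The enzymes and partners that act on the p63 protein had changes on both sides of 0, with 7 positive and 9 negative. Of 16 tested, limma passed 0, and without adjustment 3 were higher and 0 lower at a p of 0.05, against 7.15% and 4.04% of all genes. The median change was -0.04, and 0.04 without injured replicate 2. The ubiquitin ligase Nedd4 was at 147 ± 34.7 FPKM in injured and 152 ± 8.36 FPKM in uninjured libraries. Itch, Smarca4 and Actl6a were named after their values were seen. Itch, the ligase best known for marking p63 for degradation, was at 12.6 ± 1.56 FPKM in injured and 13.2 ± 1.94 in uninjured libraries, and Mdm2, the ligase of p53, at 46.8 ± 14.7 in injured and 40.9 ± 4.28 FPKM in uninjured libraries. Another ligase, Rchy1, was at 34.0 ± 7.68 in injured and 37.4 ± 18.1 FPKM in uninjured libraries. The members higher in every injured library were 3 of 16, against 12% of all genes: the histone deacetylase Hdac2, at 66.9 ± 22.0 in injured and 37.8 ± 2.65 FPKM in uninjured libraries, and the chromatin remodelling subunits Smarca4, at 21.5 ± 4.46 in injured and 13.3 ± 0.429 in uninjured libraries, and Actl6a, at 19.5 ± 5.69 in injured and 9.34 ± 1.77 FPKM in uninjured libraries. Actl6a, 1 of 16, passed as higher without injured replicate 2, where 278 of 7887 genes did.

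The nearest protein-coding neighbours of Trp63 in the RefSeq order on GRCm38 did not share its pattern. Tprg, next upstream, was at 8.56 ± 5.27 FPKM in injured and 5.57 ± 2.79 in uninjured libraries, and Lpp, the one beyond it, at 16.2 ± 9.73 in injured and 11.9 ± 1.99 FPKM in uninjured libraries. Both overlapped between the groups, and all 3 neighbours measured had positive changes. On the other side lay P3h2, not analysed here, and then Cldn1, given above, whose change was positive.

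The genes whose levels followed Trp63 most closely over the 6 libraries were sought among 3332 genes averaging 10 FPKM or more whose SD on the log2 scale was at least 0.5 times that of Trp63. The highest Pearson correlations of log2(FPKM + 1) were 0.993 for Pik3r1, a regulatory subunit of phosphoinositide 3-kinase, 0.975 for Jub, a LIM domain protein of cell junctions, and 0.967 for Tns1, a protein of focal adhesions. They were followed by the taurine transporter Slc6a6 at 0.964 and the membrane skeleton protein Add3 at 0.961. The Spearman correlations of these 5 genes were 0.94 to 1. Slc6a6 had 288, 295 and 374 FPKM in the injured libraries and 557, 622 and 528 FPKM in the uninjured ones. Pik3r1 was at 17.5, 16.2 and 23.0 FPKM in injured and 28.9, 28.8 and 23.5 FPKM in uninjured libraries. In both, injured replicate 3 was the highest injured library and uninjured replicate 3 the lowest uninjured one, as for Trp63.

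The most opposite patterns were those of Zdhhc6, an enzyme that attaches palmitate to proteins, at a Pearson correlation of -0.991, of Gtf2h2, a subunit of the general factor TFIIH, at -0.987, and of Gnas, the stimulatory G protein subunit, at -0.977. Gnas was at 557, 577 and 469 FPKM in injured libraries and 346, 316 and 368 FPKM in uninjured ones. Correlations of at least 0.9 with Trp63 were found for 55 of the 3332 genes, 1.65%, and of -0.9 or less for 44, 1.32%. These are descriptions over 6 libraries that fall into 2 groups, and any gene that separates the groups takes part in such a correlation. Among basal cell and adhesion genes the correlation ran from 0.88 for Lamb3 and 0.81 for Fermt1 to -0.45 for Cav1 and -0.48 for Cldn1, and it was -0.01 for the joined keratin entry.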

How the data were processed

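The authors deposited 1 table of values per gene and library, taken to be FPKM because the submitters' processing notes name Cuffdiff and the gene column has its heading; the table names no unit. The notes also name FastQC, TopHat and build mm9, with no version or role. Library kits were Nextera XT from polyA RNA, per the labels. The sources used here do not give the annotation, the gene filter or any scaling between libraries. Read depth is unknown: for genes under 3 FPKM, at most 2.38% of the ratios between a pair of libraries fell within any 1% window, so no whole-read steps were found. Summed FPKM ran from 164265 to 231755. No pair of libraries was identical.

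The 7987 of 8078 genes averaging 1 FPKM or more were tested with limma 3.58.1 in R 4.3.3 on log2(FPKM + 1), injured against uninjured, 3 libraries each. The empirical Bayes step used a mean-variance trend and robust estimation, and p-values were adjusted by Benjamini-Hochberg with a threshold of 0.05. The fit was tested on simulated data. Replicates are pools, and whether they came from separate days was not given. Joined entries (131) are not read as single genes. Single values were compared by exact permutation tests (scipy 1.17.1). The rule for named genes took the p53 family, all basal entries, the 4 most abundant of each target and regulator list with any past the threshold, the listed factors above Trp63 and the 2 next below it in uninjured libraries, and the 5 most like and 3 most opposite patterns. Some genes that the rule takes are not reported here. Other genes were named after their values were seen, mostly because the groups did not overlap. Trp63 and the lists were chosen with earlier results of these data known. Figures used matplotlib 3.10.9.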

Additional observations from a re-analysis of the deposited data

How the results depend on the processing

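The Trp63 change was negative in all 18 alternatives run, from -0.80 to -0.50, and passed in none (limma adjusted p from 0.277 to 0.840). Its percentile difference (9 alternatives, -1.42 to -0.96) and its offset from basal genes (11 alternatives, -1.09 to -0.58) kept their sign too, but against the median of the basal genes the offset difference was -0.63 and the groups overlapped (exact permutation p = 0.30). The offset ran to -1.09 without injured replicate 2 and to -0.58 without injured replicate 1. The count of genes called moved. It was 134 higher and 87 lower with a replicate block, where the Trp63 change was -0.61 (adjusted p = 0.676), and 85 higher and 49 lower with library weights. Without trend and robust steps it was 3 and 3. Lower genes were 2 with a pseudocount of 0.1, 3 after upper-quartile scaling, 4 after quantile normalization and 2 without genes at the table's lowest value. Leaving out 1 library at a time gave 0 to 278 higher and 1 to 92 lower genes, the highest without injured replicate 2. Same-numbered libraries did not deviate together (correlations -0.09, 0.07 and -0.08), so the numbers were not taken as pairs. Basal ratios lower without overlap were 9 without injured replicate 2, against 5 in all. The adhesion list median ran from -0.36 to 0.0053, the highest without injured replicate 2. The causes were not tested. Rescaling to equal sums, leaving out Perp and the ratio counts without a library or joined entries were chosen after seeing the data. Unknown depth limits what low genes show.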
